A study of Mus musculus with 6 samples.

Results

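The genes described here are 32 mouse genes of autophagy and the lysosome, measured by RNA sequencing in oocytes matured in vitro with or without metformin. They were taken from a list of symbols that was chosen with earlier results of these data known. The symbols were matched through GENCODE M21, and all 32 were found once among the 55487 genes of the table. Metformin is a glucose-lowering drug known to act on AMPK, a kinase that senses cellular energy and can phosphorylate ULK1. By its title the series concerns aged mice, while the sample labels give no age, strain or genotype. Every mouse was primed with gonadotropin from pregnant mare serum (10 IU), and germinal-vesicle oocytes were taken 46 to 48 h later, freed of cumulus cells and kept for 16 h in M16 medium until metaphase II. The 3 control libraries came from oocytes without the drug and the 3 metformin libraries from oocytes with it. The protocol names 10, 20 and 50 μM metformin without saying which dose was sequenced, and the number of oocytes in a library is not stated.

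Autophagy encloses cytoplasm in a double membrane and delivers it to the lysosome. The ULK1 kinase complex starts the process, the BECN1 and PIK3C3 lipid kinase complex marks the membrane with PI3P, and ubiquitin-like conjugation reactions attach proteins of the ATG8 family (LC3 and GABARAP) to it. Cargo receptors bind both ATG8 proteins and their cargo, and lysosomal membrane proteins and cathepsins complete the breakdown. Fully grown oocytes have largely stopped transcription, so that their maturation draws on stored maternal mRNA, and maternal ATG5-dependent autophagy is known to be needed by the early mouse embryo.

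Counted reads totalled 8622281 to 10588292 per library, and the 32 genes together took 0.214% to 0.247% of them. The 9 oocyte markers summed to between 26670 and 37770 CPM (reads of a gene relative to its library's TMM-scaled total) in every library. Markers of other cells summed to far less. The 10 macrophage and immune markers, whose cells are rich in lysosomes, summed to 3.39 to 6.20 CPM in control libraries. In metformin libraries they summed to 3.05 to 3.90 CPM. Of the 10, 2 passed the filter on low counts, while Adgre1 and Fcer1g were at 0 in all 6 libraries. The 11 cumulus and granulosa markers summed to 58.9 to 61.2 and 55.1 to 67.1 CPM. Of the 11, 2 passed the filter, while Amh, Foxl2 and Ptx3 were at 0 in all 6. The 7 markers of stroma, theca and endothelium summed to 29.5 to 34.6 and 25.1 to 36.2 CPM. Of the 7, 2 passed the filter, while Cyp17a1 was at 0 in all 6. Control replicate 1 stood apart in holding 286 reads of the 5 blood markers, against 0 to 2 in each of the others. The part of other cells in the results was not tested.

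None of the autophagy and lysosome genes passed the test between groups. Of the 32, 30 passed the filter on low counts and 0 were called by edgeR's quasi-likelihood test at an adjusted p under 0.05, where 0.0391% of all 12793 genes tested were called. DESeq2 also called 0 of the 30, and 0.0704% of all genes. At an unadjusted p under 0.05 there were 0 of 30 by edgeR and 0 by DESeq2, against 1.5% of all genes by edgeR and 1.06% by DESeq2. The median log2 fold change (metformin minus control) of the 30 was 0.01, equal to 0.01 over all genes tested, with quartiles of -0.16 and 0.08. Of the 30, 16 were fitted higher and 14 lower, 53.3% higher beside 52.5% of all genes. Of the 30, 17 changed sign under at least 1 alternative setting, mostly when 1 library was left out. Without control replicate 1 there were still 0 called. Leaving out metformin replicate 2 gave 1 call, Nbr1, described with the cargo receptors.

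The precision of these fits sets what can be read from them. The median SE of the log2 fold changes was 0.217 for the 30 genes and 0.239 for all genes tested. For 27 of the 30 the 95% interval lay between -1 and 1, which held for 76.0% of all genes. The exceptions were Nbr1, Atg9a and Gabarap. A difference smaller than these intervals was not detectable in 3 against 3 libraries. The labels do not say that the libraries came from separate animals or cultures, so the p-values measure only the spread between these libraries, which may be technical. In bulk RNA of oocytes, fewer contributing cells and less RNA per cell cannot be told apart.

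**Figure D1:**
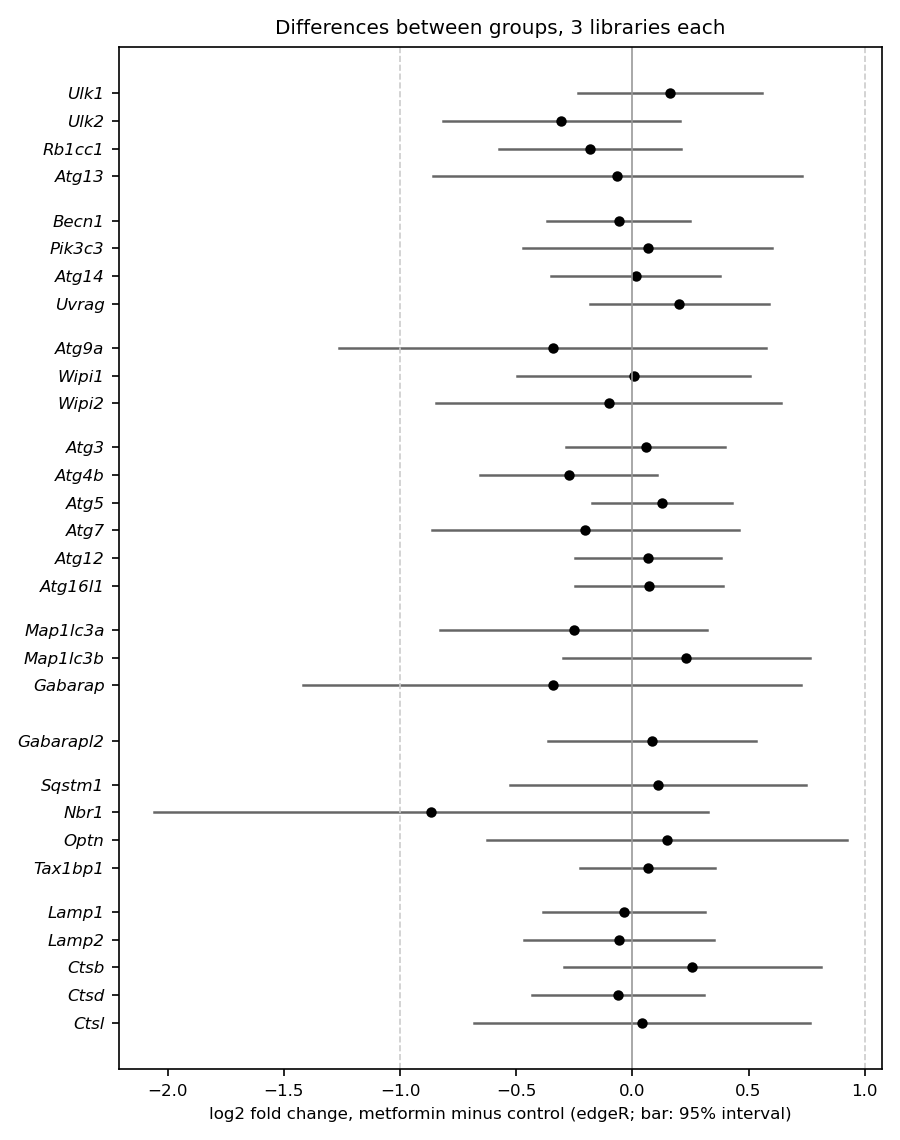
Log2 fold change (metformin minus control, x axis) of the 30 tested genes with 95% intervals from edgeR's quasi-likelihood fit on 3 control and 3 metformin libraries, ordered by step. All 30 intervals include 0, and the widest of them, that of Nbr1, runs from -2.06 to 0.33.

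Among the 4 initiation complex members, the scaffold subunit gene Rb1cc1 (FIP200) was the most abundant by FPKM and the adaptor gene Atg13 the least. FPKM is the deposited read level per gene length and sequencing depth. Rb1cc1 stood at 133, 101 and 124 CPM in control replicates 1 to 3 and at 106, 82 and 127 CPM in metformin replicates 1 to 3. Values below follow this order. The groups overlapped, with metformin replicate 2 the lowest library, and the log2 fold change was -0.18 (SE 0.179, 95% interval -0.57 to 0.21, adjusted p = 1.00, edgeR). Of the related kinase genes, Ulk1 stood at 16.6 ± 2.01 CPM without the drug and at 18.6 ± 1.39 CPM with it (SD, n = 3 each). Ulk2 stood at 7.04, 8.14 and 9.4 CPM without the drug and at 6.37, 7.96 and 5.53 CPM with it, so that metformin replicates 1 and 3 lay below every control library and replicate 2 did not. Its log2 fold change was -0.31 (SE 0.233, 95% interval -0.82 to 0.20, adjusted p = 1.00, edgeR). Ulk1 and Ulk2 were fitted in opposite directions, at 0.16 and -0.31, neither past the threshold. Per length, Ulk1 exceeded Ulk2 in every library, by a ratio of FPKM values between 1.38 and 2.39, or between 2.20 and 3.81 on the longest transcripts. Atg13 had only 12 to 19 reads per library, a level of 1.62 ± 0.472 CPM without the drug and 1.54 ± 0.220 CPM with it (SD, n = 3 each).

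None of the 4 lipid kinase genes passed the test. Becn1, the scaffold of the complex, stood at 129.7 ± 12.7 CPM without the drug and at 124 ± 10.58 CPM with it (SD, n = 3 each). Its spread was small, with a within-group SD of 0.13 on the log2 scale. Of its merged exons, 43.9% also lie in exons of Cntd1 on the opposite strand, which had at most 25 reads in any library. Libraries of this kit do not keep the strand, so reads of that pair cannot be told apart. Pik3c3, the catalytic subunit, stood at 18.5, 17.9 and 10.4 CPM without the drug and at 19.5, 15.8 and 13.6 CPM with it, with control replicate 3 the lowest library.

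Atg14 and Uvrag encode alternative subunits that direct the kinase to autophagosome formation or to endosomes. Atg14 stood at 61.2 ± 10.7 CPM without the drug and at 61.8 ± 4.96 CPM with it (SD, n = 3 each), a log2 fold change of 0.01 with a 95% interval of -0.35 to 0.38. Uvrag stood at 50.6, 52.7 and 40.7 CPM without the drug and at 64.8, 54.9 and 45.9 CPM with it. The groups overlapped, and the log2 fold change was 0.20 (SE 0.176, 95% interval -0.18 to 0.59, adjusted p = 1.00, edgeR). A stretch of at most 345 bases in Uvrag matches 6 other genes, Mettl6, Klhl20, Txndc16, Gm37266, Gm38110 and Gm21388, at 95% to 95.6% identity, which makes some of its reads uncertain. In all 6 libraries Atg14 lay above Uvrag per length, with an FPKM ratio between 1.85 and 2.43.

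The genes of membrane supply and PI3P reading were low. Atg9a, the only transmembrane protein of the core machinery, had 10 to 25 reads per library and stood at 1.94 ± 0.606 CPM without the drug and at 1.53 ± 0.741 CPM with it (SD, n = 3 each). The same-strand transcript Gm29253 shares 31.8% of the merged exons of Atg9a. It had 0 reads in every control library and 8, 0 and 14 reads in metformin replicates 1 to 3. The division of reads, and with it the direction of the Atg9a difference, is therefore uncertain. The 95% interval of the Atg9a log2 fold change, -1.26 to 0.57, was among the widest. Of the PI3P-binding WIPI genes, Wipi1 was nearly level between groups at 5.24 ± 0.0362 CPM without the drug and at 5.26 ± 0.61 CPM with it (SD, n = 3 each), with a 95% interval of -0.50 to 0.51 for its log2 fold change. Wipi2, which recruits ATG16L1 in other cells, stood at 2.18 ± 0.437 CPM without the drug and at 2.02 ± 0.569 CPM with it (SD, n = 3 each). Wipi1 exceeded Wipi2 per length in every library, by an FPKM ratio between 4.81 and 10.4, or between 2.75 and 5.97 on the longest transcripts.

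The conjugation genes held both the most abundant member by FPKM, Atg5, and one of the scarcest, Atg7. Atg5, whose product is joined to ATG12 and binds ATG16L1, is encoded at ENSMUSG00000038160, GRCm38 chromosome 10, 44268358 to 44364291, plus strand. It stood at 339, 399 and 355 CPM without the drug and at 369.6, 371 and 453 CPM with it. Metformin replicate 3 was the highest library and the groups overlapped, with a log2 fold change of 0.13 (SE 0.138, 95% interval -0.18 to 0.43, adjusted p = 1.00, edgeR). Atg12 stood at 169, 149.8 and 139 CPM without the drug and at 158, 179 and 141 CPM with it, with a log2 fold change of 0.07 (SE 0.144, 95% interval -0.25 to 0.38, adjusted p = 1.00, edgeR). Atg16l1, which brings the conjugate to the membrane, stood at 112 ± 10.1 CPM without the drug and at 118 ± 14.1 CPM with it (SD, n = 3 each). The 3 genes of that complex were fitted at 0.13, 0.07 and 0.07, none past the threshold.

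The enzymes that make and process the conjugates spanned a wide range of levels. Atg3, the E2-like enzyme for ATG8 proteins, stood at 43.2, 34.5 and 41.5 CPM without the drug and at 39.8, 42 and 42.4 CPM with it, and its log2 fold change was 0.06 (SE 0.157, 95% interval -0.28 to 0.40, adjusted p = 1.00, edgeR). Control replicate 2 was its lowest library and the groups overlapped. Atg7, the E1-like enzyme that both conjugation reactions use, had 33, 21 and 31 reads in control and 33, 20 and 27 reads in metformin libraries. Per length, Atg5 exceeded Atg7 by an FPKM ratio of 609 on average, between 422 and 814 in single libraries. With lengths of the longest annotated transcripts the ratio was 234, between 162 and 312.

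Atg4b was the only member whose groups did not overlap. It encodes the protease that trims ATG8 proteins before conjugation and releases them from membranes afterwards (ENSMUSG00000026280, GRCm38 chromosome 1, 93751500 to 93790610, plus strand). It stood at 25.6, 28.9 and 23.7 CPM without the drug and at 19, 22.6 and 23 CPM with it, so that each metformin library lay below each control library. The gap between the lowest control and the highest metformin library was small beside the spread within groups. The log2 fold change was -0.28 (SE 0.173, 95% interval -0.66 to 0.10, adjusted p = 1.00, edgeR) and the unadjusted p 0.139. This is 1 gene of 30, or 3.33%, beside 5.63% of all genes tested without overlap in either direction. Leaving out 1 library gave 2 to 6 members without overlap, 6.67% to 20.0% of the 30. There were 4, 6 and 2 without control replicate 1, 2 or 3, where 12.3%, 13.7% and 14.1% of all genes had no overlap. There were 5, 3 and 2 without metformin replicate 1, 2 or 3, where 17.2%, 14.6% and 13.8% of all genes had none.

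Within the ATG8 family, Gabarapl2 was the leading transcript per length and Gabarapl1 was close to undetected. Gabarapl2 (GATE-16) stood at 41.2, 42.5 and 51.7 CPM without the drug and at 34, 51.8 and 57.8 CPM with it, where metformin replicate 1 was the lowest and metformin replicate 3 the highest. Its log2 fold change was 0.08 (SE 0.204, 95% interval -0.36 to 0.53, adjusted p = 1.00, edgeR). By FPKM, Gabarapl2 made up 56.4% ± 8.21 of the family in control and 57.4% ± 3.07 in metformin libraries (SD, n = 3 each). The 3 annotated copies (the loci Gm3724, Gm5829 and Gm6051) match it at 96.6% to 99.4% identity over at least 300 bases. They held 36 to 64 reads together, so a part of the reads may be misassigned, and the summed level of all was 51.1 ± 6.32 and 52.8 ± 13.8 CPM.

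The LC3 genes took most of the remainder. Map1lc3a, encoding LC3A, stood at 22.4, 11.3 and 17.9 CPM without the drug and at 11.4, 17.8 and 14.1 CPM with it. Map1lc3b, encoding the LC3B protein widely used as an autophagosome marker, stood at 61.1, 33.2 and 60.5 CPM without the drug and at 48.6, 60.8 and 72.6 CPM with it. Both overlapped between groups, with log2 fold changes of -0.25 (95% interval -0.83 to 0.32) and 0.23 (-0.30 to 0.76). For both, control replicate 2 was the lowest of all libraries. Map1lc3a made up 24.5% ± 5.45 and 20.6% ± 2.97 of the family by FPKM and Map1lc3b 17.5% ± 3.04 and 20.6% ± 1.54 (SD, n = 3 each). Gabarap had 6 to 21 reads per library and 1.40% of the family on average, and its log2 fold change of -0.34 had a 95% interval of -1.42 to 0.73. Gabarapl1 had 0, 1 and 1 reads in control and 2, 1 and 0 reads in metformin libraries. These values lie below the floor of 3 counts, which corresponded to 0.285 to 0.339 CPM and covers counting error only, and no fold is given.

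Among the cargo receptors, Tax1bp1 was abundant, Sqstm1 was scarce and Nbr1 split the metformin libraries. Tax1bp1 (ENSMUSG00000004535, GRCm38 chromosome 6, 52713729 to 52766780, plus strand) stood at 720, 799 and 705 CPM without the drug and at 834, 697 and 794 CPM with it. The groups overlapped and the log2 fold change was 0.07 (SE 0.133, 95% interval -0.23 to 0.35, adjusted p = 1.00, edgeR). Sqstm1 encodes p62, the receptor most often measured as a readout of autophagic turnover, and stood at 3.31 ± 0.886 CPM without the drug and at 3.56 ± 0.635 CPM with it (SD, n = 3 each). Tax1bp1 exceeded Sqstm1 per length by an FPKM ratio of 117 to 172 in the 6 libraries. The sparse Sqstm1 reads are uncertain, because 17.3% of its merged exons overlap Mrnip on the opposite strand, which had up to 204 reads. Optn, encoding optineurin, varied widely in both groups, at 17.7, 27.5 and 11.8 CPM without the drug and at 27.7, 21.5 and 13.8 CPM with it. Its log2 fold change of 0.15 had a 95% interval of -0.63 to 0.93.

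Nbr1 encodes a ubiquitin-binding receptor that acts beside p62 (ENSMUSG00000017119, GRCm38 chromosome 11, 101552149 to 101581951, plus strand). It had 880, 977 and 1160 reads in control and 380, 1072 and 348 reads in metformin libraries. This is a level of 92.5, 110.5 and 119.8 CPM without the drug and at 36.1, 105 and 35.6 CPM with it. Metformin replicates 1 and 3 lay below every control library, at nearly the same level, while metformin replicate 2 lay within the control range. The log2 fold change over all 6 libraries was -0.87 (SE 0.477, 95% interval -2.06 to 0.33, adjusted p = 1.00, edgeR) and the unadjusted p 0.124, the smallest of the 30 genes. Without metformin replicate 2 it was -1.58 (SE 0.187, adjusted p = 0.0164, edgeR). Under the 10 other alternatives it ranged from -1.06 to -0.61 and did not pass. DESeq2 on all libraries gave -0.87 with an adjusted p of 1.00. Its call thus rested on leaving out that library. The within-group SD of Nbr1 on the log2 scale, 0.64, was at percentile 96.7 of the 6668 genes averaging at least 10 CPM.

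The 5 lysosomal members were led by Lamp1, the main glycoprotein of the lysosomal membrane. Lamp1 (ENSMUSG00000031447, GRCm38 chromosome 8, 13159161 to 13175338, plus strand) stood at 117, 118 and 105 CPM without the drug and at 129, 114 and 89.4 CPM with it. Metformin replicate 3 was the lowest library and metformin replicate 1 the highest, and the log2 fold change was -0.04 (SE 0.159, 95% interval -0.38 to 0.31, adjusted p = 1.00, edgeR). Lamp2, which is needed for fusion of autophagosomes with lysosomes, stood at 21.3 ± 2.17 CPM without the drug and at 20.4 ± 3.28 CPM with it (SD, n = 3 each). Per length, Lamp1 exceeded Lamp2 by an FPKM ratio of 15.7 to 23.2 across the libraries, or 7.25 to 10.7 with the longest transcripts.

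Among the cathepsin genes of the member list, Ctsd was the most abundant per length by FPKM and Ctsl the least. Ctsd, an aspartic protease, stood at 32.6 ± 3.99 CPM without the drug and at 31.3 ± 3.09 CPM with it (SD, n = 3 each). The same-strand gene Gm49369 shares 34.4% of its merged exons and had at most 3 reads in a library. Ctsb, a cysteine protease, stood at 12, 8.03 and 7.75 CPM without the drug and at 13.8, 10.9 and 8.49 CPM with it. The groups overlapped and the log2 fold change was 0.26 (SE 0.253, 95% interval -0.30 to 0.81, adjusted p = 1.00, edgeR). Of the merged exons of Ctsb, 12.8% lie in exons of Fdft1 on the opposite strand, which had up to 965 reads. Its reads are therefore uncertain. Ctsl stood at 4.11 ± 1.45 CPM without the drug and at 4.24 ± 1.45 CPM with it (SD, n = 3 each).

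Tfeb, the transcription factor best known for driving lysosomal and autophagy genes, had 0 reads in all 6 libraries, which allows up to 0.285 to 0.339 CPM. Its relatives were present and did not pass the test. Tfe3 stood at 10.63 ± 1.53 CPM without the drug and at 10.9 ± 2.74 CPM with it (SD, n = 3 each) and Mitf at 10 ± 1.65 CPM without the drug and at 10.9 ± 2.59 CPM with it (SD, n = 3 each), both named after their values were seen. Factors of this family bind DNA at an E-box core, CACGTG, that is extended in many lysosomal promoters to TCACGTGA.

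Promoters are shown to let that sequence be seen in the members that carry it most plainly. RefSeq windows from 250 bases before to 50 bases after a gene's start (GRCm38.p6) were found for 25 of the 32 genes, the start being that of a RefSeq transcript. CACGTG, which reads the same on both strands, occurred in windows of 7 genes. These were Atg14, Atg3, Atg5, Atg7, Lamp1, Ctsd and Ctsl, 7 of 25 beside 8.09% of 27025 genes with such a window. For 5 of the 7 the RefSeq start lay within 370 bases of the start of the GENCODE M21 gene. It lay 2215 bases inside the gene for Atg14 and 27999 bases inside it for Atg7. Of all 25 genes, 20 had a RefSeq start within 500 bases of the GENCODE start. For Atg4b, Wipi2 and Wipi1, without CACGTG, it lay 3405, 1886 and 578 bases inside the gene. A lack of CACGTG in those windows does not cover the GENCODE start. TCACGTGA, which contains the shorter word, occurred in Atg3 and Ctsd and in 1.12% of genes. The following windows hold CACGTG in capitals, 4 times in Lamp1 and 2 times each in Ctsd and Atg3.
Lamp1 promoter, GRCm38.p6 chr8:13158911-13159210, plus strand: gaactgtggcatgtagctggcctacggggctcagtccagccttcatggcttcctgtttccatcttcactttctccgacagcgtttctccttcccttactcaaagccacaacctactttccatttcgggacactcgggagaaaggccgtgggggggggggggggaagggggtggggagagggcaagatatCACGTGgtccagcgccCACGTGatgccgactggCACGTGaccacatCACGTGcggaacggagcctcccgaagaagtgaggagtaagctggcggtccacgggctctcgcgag
Ctsd promoter, GRCm38.p6 chr7:142387778-142388077, minus strand: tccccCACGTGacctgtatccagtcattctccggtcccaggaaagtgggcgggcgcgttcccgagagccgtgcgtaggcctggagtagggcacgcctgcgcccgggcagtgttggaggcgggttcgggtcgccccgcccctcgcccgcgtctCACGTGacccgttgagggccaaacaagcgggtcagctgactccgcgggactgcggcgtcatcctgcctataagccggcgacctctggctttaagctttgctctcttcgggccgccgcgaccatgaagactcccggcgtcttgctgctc
Atg3 promoter, GRCm38.p6 chr16:45158579-45158878, plus strand: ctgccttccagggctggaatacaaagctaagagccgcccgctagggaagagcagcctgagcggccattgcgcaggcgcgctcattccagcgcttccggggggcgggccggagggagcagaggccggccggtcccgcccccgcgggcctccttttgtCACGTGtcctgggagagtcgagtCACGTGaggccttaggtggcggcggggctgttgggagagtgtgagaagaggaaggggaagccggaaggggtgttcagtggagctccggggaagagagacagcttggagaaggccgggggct
Members with the word had mean FPKM levels from 0.259 (Atg7) to 150.5 (Atg5) with a median of 8.84, and the 16 tested members without it from 0.152 (Atg9a) to 68.2 (Tax1bp1) with a median of 1.95. Their median log2 fold changes were 0.01 and -0.03. A match is a description of the letters and not evidence of binding.

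**Figure D2:**
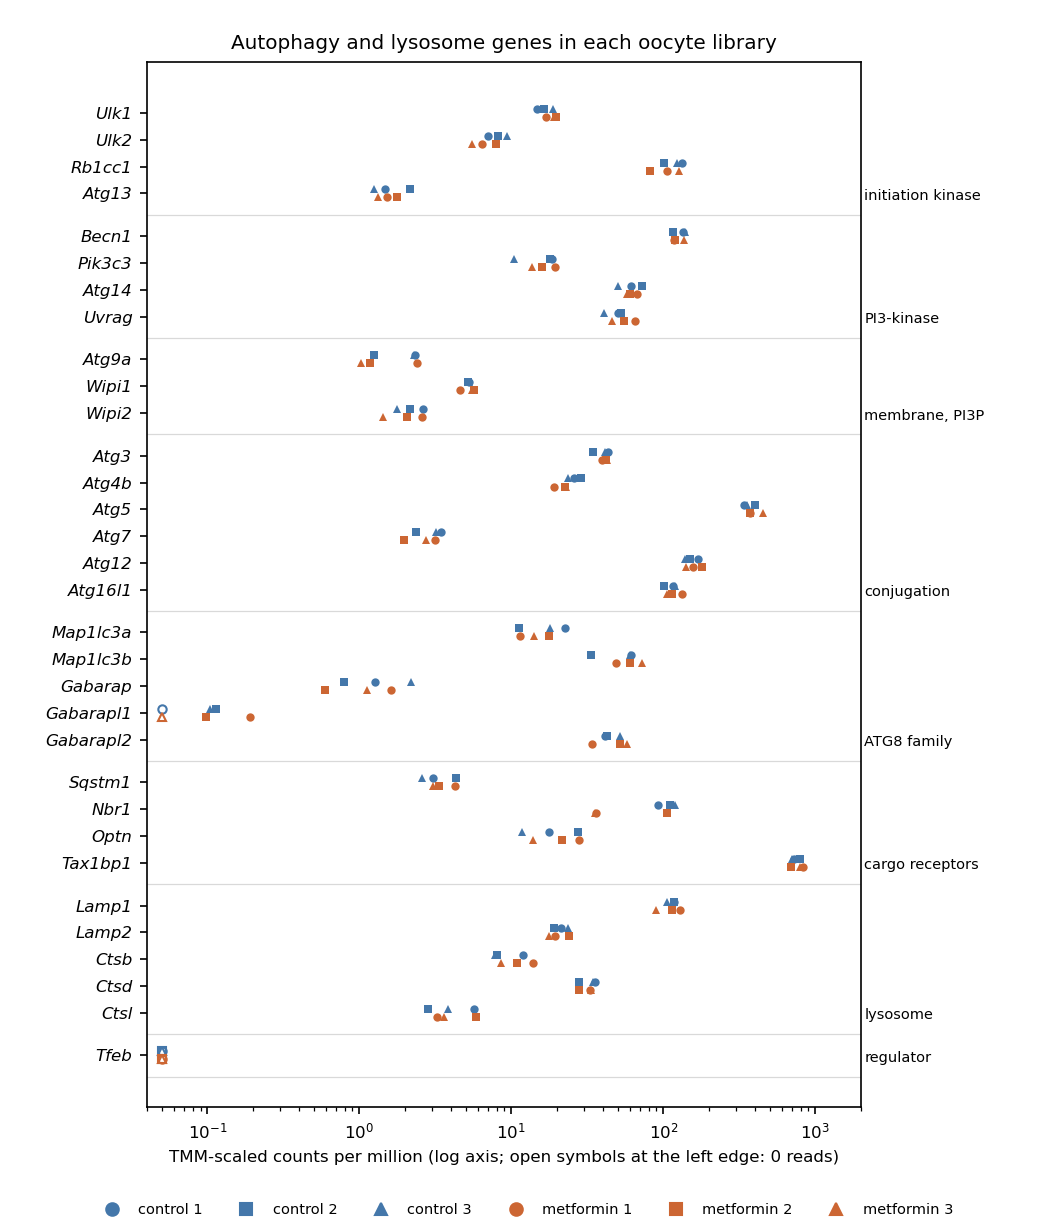
TMM-scaled CPM on a log axis for the 32 genes, ordered by step, with each point 1 library (blue control, orange metformin; the symbol gives the replicate number). The control and metformin ranges overlap for every tested gene but Atg4b, and Tfeb sits at 0 reads throughout.

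The order of the genes by level per length was led by a few members. Of the 32, 21 averaged at least 10 CPM, and Tax1bp1, Atg5 and Atg12, 3 genes, took 56.6% of the reads of all 32. By deposited FPKM the 6 highest were Atg5 (150.5), Tax1bp1 (68.2), Lamp1 (39.5), Atg12 (18.7), Gabarapl2 (15.6) and Atg3 (11.8), each a mean over 6 libraries. The ranges over libraries of Atg5, Tax1bp1, Lamp1 and Atg12 did not overlap each other. From Atg12 down to Wipi1 each gene's range overlapped that of the next. The next break between ranges lay between Ulk2 and Sqstm1. Overlap of ranges does not show that neighbours were equal, because both genes were read in the same libraries. Atg3 lay above Becn1 in all 6 libraries, while Gabarapl2 lay above Atg12 only in control replicate 3 and metformin replicate 3. The 30 tested genes had a median of 3.85 FPKM, beside 2.52 FPKM for all genes tested.

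The lengths behind the deposited FPKM values differed from the annotated ones. Lengths were worked out from count and FPKM with a library's counted reads as the depth, and another depth would scale them all alike. For all 31 members with reads, the implied length at this depth exceeded the merged exon length of the GENCODE M21 gene. The lowest ratio was 1.04, for Lamp2. A larger depth would shorten every implied length, and some could then fall below the merged exons. At the depth used, the implied length was 1.07 to 4.35 times the longest annotated transcript, with a median of 2.14. On lengths of the longest transcript Tax1bp1 came first at 178 reads per kilobase (scaled to sequencing depth) and Atg5 second at 161, with overlapping ranges. Atg16l1 moved from rank 11 to rank 5, and Lamp1 and Atg12 stayed at ranks 3 and 4. By FPKM the last 9 places were held by Sqstm1, Ctsl, Gabarap, Atg7, Atg13, Wipi2, Atg9a, Gabarapl1 and Tfeb, and on the longest transcript Ulk2 exchanged its place with Sqstm1.

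**Figure D3:**
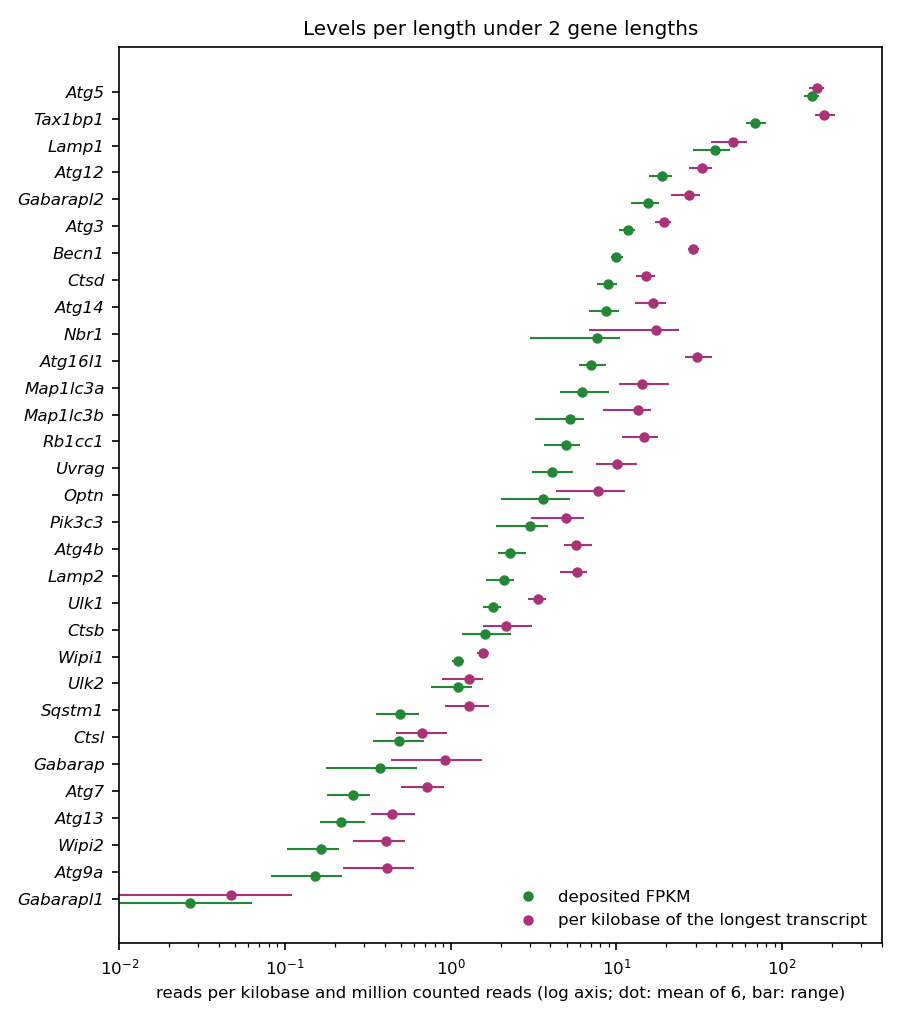
Level per length of the 31 genes with reads, as deposited FPKM (green) and as reads per kilobase of the longest annotated transcript scaled to sequencing depth (purple), on a log axis; dots are means of 6 libraries and bars the range, cut at the left edge for Gabarapl1, which had 0 reads in 2 libraries. Atg5, Tax1bp1 and Lamp1 lead under both lengths.

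Summed by step, the conjugation genes held 49.4% of the members' total FPKM, the cargo receptors 20.7%, the lysosomal genes 13.6%, the ATG8 family 7.12% and the lipid kinase complex 6.68%. The initiation complex held 2.10% and the membrane genes 0.370%. On lengths of the longest transcript the conjugation genes held 37.5%, the cargo receptors 30.6% and the lysosomal genes 11.1%. The lipid kinase complex then held 9.06%, the ATG8 family 8.39%, the initiation complex 2.96% and the membrane genes 0.358%. Single genes made most of the FPKM sums, Atg5 79.0% of its step, Tax1bp1 85.4% and Lamp1 75.2%. The conjugation step summed to 185 ± 14.5 FPKM in control and 197 ± 5.73 FPKM in metformin libraries, the cargo receptors to 80.7 ± 8.28 and 79.1 ± 8.93, and the lysosomal genes to 53.2 ± 4.40 and 51.9 ± 10.9 (SD, n = 3 each). For these steps the difference between groups was within 1 SD of at least 1 group. The same held for the lipid kinase complex at 25.68 ± 2.945 and 25.85 ± 3.093 FPKM and the ATG8 family at 27.3 ± 3.92 and 27.6 ± 4.49. It also held for the membrane genes at 1.453 ± 0.0907 and 1.399 ± 0.115. The initiation complex differed by more than the SD of either group, at 8.45 ± 0.526 in control and 7.71 ± 0.532 FPKM in metformin libraries. Its groups overlapped, and the difference was not tested.

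The spread between libraries of a group was close to that of other genes. For the 21 members averaging at least 10 CPM the median within-group SD on the log2 scale was 0.20, beside 0.21 for all 6668 such genes. Tax1bp1 (0.12), Atg3 (0.13), Becn1 (0.13) and Ulk1 (0.14) were the steadiest, and Nbr1 (0.64), Optn (0.55), Map1lc3a (0.41) and Map1lc3b (0.41) the most variable. The median deviation of the 30 genes from their own means ran from -0.12 in metformin replicate 3 to 0.08 in control replicate 1, where that of all genes ran from 0.00 to 0.01.

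Further genes of the pathway did not pass the test either. Of 35 further autophagy genes 27 were tested and 0 passed by edgeR or DESeq2, with 14 fitted higher, 13 lower and a median log2 fold change of 0.01. Of 40 further lysosome genes 26 were tested and 0 passed, with 13 fitted higher, 13 lower and a median of 0.01. At an unadjusted p under 0.05 there were 0 of these 53 by edgeR, beside 1.5% of all genes, and 1 by DESeq2, Ncoa4, beside 1.06% of all genes. The smallest p among the autophagy genes were those of Ncoa4, a receptor for ferritin, of the lipid scramblase gene Tmem41b and of the SNARE gene Vamp8. Tmem41b stood at 50.6 ± 5.62 CPM without the drug and at 60.3 ± 8.35 CPM with it (SD, n = 3 each), a log2 fold change of 0.25 (SE 0.164, 95% interval -0.10 to 0.61, adjusted p = 1.00, edgeR). Vamp8 stood at 3.52 ± 0.533 CPM without the drug and at 4.65 ± 0.662 CPM with it (SD, n = 3 each), a log2 fold change of 0.40 (SE 0.258, 95% interval -0.16 to 0.96, adjusted p = 1.00, edgeR). Among the lysosome genes the smallest p were those of the membrane protein gene Laptm4a, the protease gene Lgmn and Scarb2, which encodes LIMP-2. Laptm4a stood at 98.7 ± 11.1 CPM without the drug and at 117 ± 18.2 CPM with it (SD, n = 3 each), a log2 fold change of 0.25 (SE 0.159, 95% interval -0.10 to 0.59, adjusted p = 1.00, edgeR). Lgmn stood at 16.5 ± 1.53 CPM without the drug and at 13.7 ± 1.34 CPM with it (SD, n = 3 each), a log2 fold change of -0.27 (SE 0.184, 95% interval -0.67 to 0.13, adjusted p = 1.00, edgeR). Scarb2 stood at 6.17 ± 2.53 CPM without the drug and at 4.59 ± 0.539 CPM with it (SD, n = 3 each), a log2 fold change of -0.43 (SE 0.302, 95% interval -1.09 to 0.23, adjusted p = 1.00, edgeR). Of these 5 genes only Lgmn had groups that did not overlap. Over both further lists Zfyve1 and Lgmn lay lower and Vps11 higher without overlap. They were 5.66% of the 53 tested genes, beside 5.63% of all genes.

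As with Nbr1, the metformin libraries of Ncoa4 split, with replicate 3 low for both genes and a different library at the control level. It stood at 75.7, 65.5 and 68.2 CPM without the drug and at 67.7, 29.3 and 27.5 CPM with it, so that metformin replicates 2 and 3 were low and replicate 1 was not. The log2 fold change was -0.75 (SE 0.345, 95% interval -1.56 to 0.06, adjusted p = 1.00, edgeR). Without metformin replicate 1 it was -1.30 (SE 0.167, adjusted p = 0.00759, edgeR), and under the other 10 alternatives it was not called. The 2 genes that follow were chosen after their values were seen, and both split libraries within each group. Atg2b, a lipid transfer protein gene, was low in replicate 2 of each group, at 11.9 and 8.84 CPM against 29.1 to 34.6 CPM in the others. Laptm4b, a lysosomal membrane protein gene, was high in control replicate 1 and metformin replicate 3, at 874 and 792 CPM against 219 to 266 CPM in the others.

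**Figure D4:**
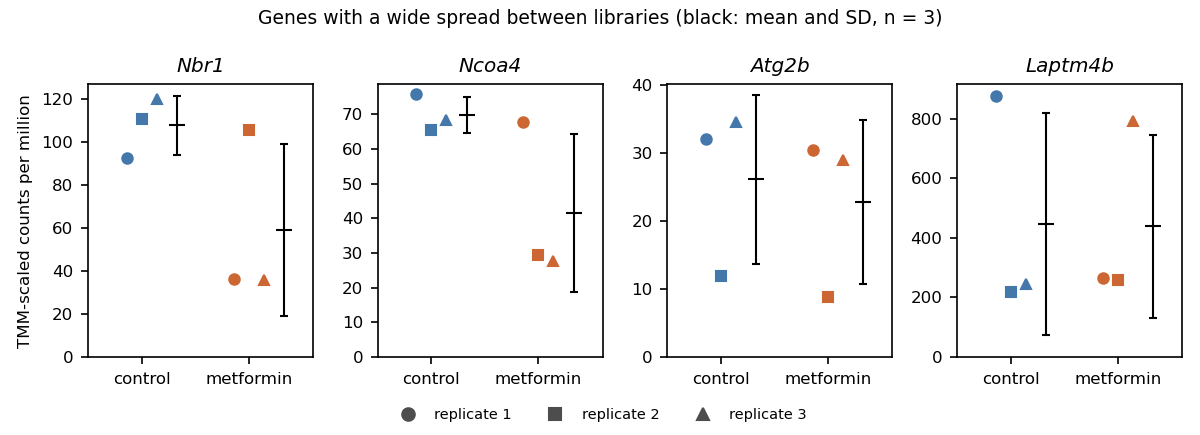
TMM-scaled CPM of Nbr1, Ncoa4, Atg2b and Laptm4b in each library (symbols give the replicate number) with mean and SD of 3 libraries per group in black. In each panel at least 1 group has libraries at separate levels, and the low or high libraries differ from gene to gene.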

How the data were processed

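Libraries of mouse oocytes were made with the SMART-Seq HT kit, per the labels' protocols. This kit primes on poly(A) tails and keeps neither strand nor molecular identifiers, and the labels mention no spike-in. CASAVA 1.8, TopHat2 2.0.6 and the mm10 build are named in the submitters' processing notes. Read counts per gene were deposited by the authors as whole numbers, and FPKM values beside them in the deposited table; for the counting program, annotation release and treatment of multi-mapping reads, the sources used here give nothing. Symbols were matched to 55141 of 55487 identifiers.

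Counts were tested with edgeR 4.0.16 in R 4.3.3 (TMM scaling, filterByExpr with a minimum count of 10, robust quasi-likelihood test, no covariate beside group), with Benjamini-Hochberg adjustment over 12793 genes at 0.05. Intervals are 95%. CPM are on TMM-scaled totals. Levels between genes used FPKM, with reads per kilobase of the longest GENCODE M21 transcript as the alternative. Copies were sought with BLAST 2.17.0. Scripts were tested on simulated data. Alternatives were DESeq2 size factors, total counts, no filter, DESeq2 1.42.0, a replicate block and leaving out each library. All 32 genes are named; full statistics are given for the 6 smallest p and the 6 highest per length, and the 3 smallest p of each further list. Members and lists were chosen with earlier results of these data known.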

Additional observations from a re-analysis of the deposited data

How the results depend on the processing

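The count of 0 autophagy and lysosome genes called held under both other scalings, no filter, DESeq2 and the replicate block (0 called, with 7 of all genes). Leaving out 1 library gave 0 to 1 (Nbr1, without metformin replicate 2), and 0 to 1 of the further genes (Ncoa4, without metformin replicate 1). All genes called numbered 5, 9 by DESeq2 and 5 to 12 with 1 library left out. Members without overlap numbered 2 to 6 of 30 with 1 library left out, or 6.67% to 20.0%, beside 12.3% to 17.2% of all genes. No alternative reassigned reads between overlapping genes such as Atg9a and Gm29253. Of 30 tested members 13 kept their direction under all 11 alternatives and 17 did not. Their log2 fold changes with 1 library left out spanned, in order, Atg13 -0.225 to 0.183, Pik3c3 -0.156 to 0.203, Atg14 -0.105 to 0.145, Wipi1 -0.057 to 0.097, Wipi2 -0.313 to 0.089, Atg3 -0.036 to 0.118, Atg12 -0.027 to 0.144, Atg16l1 -0.026 to 0.144, Map1lc3b -0.005 to 0.368, Gabarap -0.721 to 0.11, Gabarapl2 -0.075 to 0.279, Sqstm1 -0.042 to 0.339, Optn -0.101 to 0.512, Lamp1 -0.162 to 0.096, Lamp2 -0.194 to 0.033, Ctsd -0.161 to 0.017 and Ctsl -0.273 to 0.343. Wipi1 also turned to -0.01 with total counts alone and -0.002 without the filter. On lengths of the longest transcript Map1lc3b held 23.9% and Gabarapl2 49.3% of the ATG8 family, and the steps summed to 19.8 (initiation), 60.5 (lipid kinase), 2.39 (membrane), 250.6 (conjugation), 56.1 (ATG8), 204.7 (receptors) and 74.0 (lysosome) reads per kilobase, scaled to depth. The deviations of same-numbered libraries correlated at 0.144, 0.0441 and 0.2, not all above 0.1, so the numbers were not taken to pair the samples, although every library correlated best with its own number. The replicate block moved Nbr1 to -1.06 and Ncoa4 to -0.87, neither called. Their unadjusted p were 0.0594 and 0.00426 (edgeR with the block). With the block 296 of all genes tested had an unadjusted p under 0.05, against 192 without it, and 0 of the 30 members (edgeR). Over scalings the median of all genes lay between -0.001 and 0.01. With 3 libraries a group, low counts limit genes such as Atg9a (10 to 25 reads) and Gabarap (6 to 21 reads). The cause of the shifts was not tested.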
